A study of Homo sapiens with 4 samples.

Results

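The genes described here are 8 receptors of the tumour necrosis factor (TNF) receptor family, most of them known from B-lineage cells and LTBR mainly from stromal and myeloid cells: TNFRSF13B (TACI), TNFRSF13C (BAFF receptor), TNFRSF17 (BCMA), CD40, CD27, TNFRSF1A, TNFRSF1B and LTBR. They were taken by symbol from 2 deposited lists of N6-methyladenosine (m6A) peaks, and every peak under those symbols was kept. Of the 8 genes, 5 had listed peaks, with 11 of the 22448 shNC peaks and 12 of the 24626 shALKBH5 peaks. The lists together named 12779 gene symbols. The cells were RPMI-8226, an established human multiple myeloma line, transduced with lentivirus and sampled with (shALKBH5) or without (shNC) hairpin knockdown of ALKBH5, an RNA demethylase that removes m6A. Each condition had 1 library of poly(A) RNA enriched with an anti-m6A antibody (IP) and 1 library without antibody (input). With no replicate of either condition, no test between conditions was possible, and every value compares single pairs of libraries from a single cell line. The tables hold no read counts, so depth and expression, including that of ALKBH5, were not measured here.

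TNF receptor family proteins span the cell membrane and bind trimeric ligands through cysteine-rich repeats outside the cell. Inside the cell they recruit TRAF adaptors, or in the case of TNFRSF1A a death domain adaptor, and signal to NF-κB and MAP kinases. BAFF, a ligand of TNFRSF13B, TNFRSF13C and TNFRSF17, and APRIL, a ligand of TNFRSF13B and TNFRSF17, support the survival of B cells and plasma cells. BCMA is a target of myeloma therapy. In messenger RNA, m6A is made at a short consensus that includes GGACU and AGACU, and it is most frequent near stop codons and in the last exon.

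A pair of short sequences beneath these peaks could be read from the RefSeq tables for GRCh38.p14. The stretch at the TNFRSF13B start is shown because a spliced peak of both lists began there, and the stretch inside TNFRSF13C because it lay under the peak of 1 list alone. Capitals mark the consensus letters, and both are written 5′ to 3′ on the minus strand, the strand of these genes.

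TNFRSF13B, the first 30 transcribed bases, chr17:16972089-16972118: aagcactaatcaaatctaAGACTagtaata

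TNFRSF13C, the 21 bases annotated as hsa-miR-378i, chr22:41923271-41923291: acuGGACUaggagucagaagg

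In TNFRSF13B the letters AGACT stood at bases 19 to 23 of the transcript. AGACT occurred in the first 30 transcribed bases of 2.61% of 35116 RefSeq promoter entries, and GGACT in 2.7% (sense strand only). Of the 8 receptors, 5 had a promoter entry, and 1 of these, TNFRSF13B, held either motif in that window. In hsa-miR-378i the letters GGACU stood at bases 4 to 8, and 76 of 2545 mature miRNAs of the RefSeq table (2.99%) contained them. A match describes the sequence and does not place a methylated base.

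Peaks are described below by site, numbered from 5′ to 3′ within each gene, where peaks of the 2 lists that share at least 1 base form 1 site. The fold is the authors' ratio of IP over input within a peak, and the log10 p is that of the authors' own test of that peak. Both describe a peak within its list, since the sources used here do not state how IP was scaled to input. A percentile gives the share of peaks in the same list with an equal or lower fold, or an equal or weaker p. Coordinates are on hg38 and count from 1. Exon and UTR borders were not used here, so positions are given from the RefSeq gene ends.

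TNFRSF13B, the receptor TACI for BAFF and APRIL (ENSG00000240505, chromosome 17, 16939081 to 16972118), had 3 peaks in each list. Site 1 began exactly at the RefSeq gene start in both lists and followed splicing. In the shNC list it joined 104 bases at the gene start to 106 bases beyond a gap of 19431 bp. In the shALKBH5 list it held the same 104 bases, then 138 bases beyond the same gap, and then 27 bases beyond a further gap of 3462 bp. Its fold was 2.81 for shNC and 8.6 for shALKBH5, at percentiles 17.8 and 59.9 of their lists, and its log10 p was -4.76 and -7.97. It was the weakest TNFRSF13B peak by p in both lists.

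TNFRSF13B site 2, at 16940832 to 16941190 for shNC and 16940862 to 16941249 for shALKBH5, ended 1751 and 1781 bp before the gene end. Its folds were 11.6 and 8.32, and its log10 p values were -13 and -16.3. Site 3 lay 110 bp before the gene end, at 16939191 to 16939609 with the same borders in both lists. Its fold of 30.7 was the highest of any of these receptors in the shNC list, with a log10 p of -353. With shALKBH5 the fold was 18.1, again the highest of these receptors, with a log10 p of -155. The strongest TNFRSF13B peak thus lay close to the gene end in both conditions, at fold percentiles of 97 and 88.9.

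TNFRSF13C, the BAFF receptor (ENSG00000159958, chromosome 22, 41922032 to 41926806), had 3 peaks in each list, and every border differed between the lists. Site 1 spanned 299 bases for shNC, at 41925130 to 41925428, and 449 bases for shALKBH5, at 41925010 to 41925458. The shNC peak lay wholly inside the shALKBH5 peak. Its folds were 19.6 and 10.6, at percentiles 90.4 and 68.5, and its log10 p values were -27.5 and -19.9. Site 1 was the strongest TNFRSF13C peak in both lists.

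The other TNFRSF13C peaks were short and weak by p, and shifted between the lists. At site 2, 91 bases for shNC (41923636 to 41923726) shared 61 bases with a peak of 240 bases for shALKBH5 (41923666 to 41923905). The folds there were 8.03 and 8.82, with log10 p values of -3.31 and -7.06. At site 3, 150 bases for shNC (41923218 to 41923367) shared only 31 bases with 91 bases for shALKBH5 (41923337 to 41923427). The folds at site 3 were 9.37 and 5.43, with log10 p values of -4.02 and -3.62. The hsa-miR-378i stretch printed above lay inside the shNC peak of site 3 and 45 bp outside the nearest TNFRSF13C peak of the shALKBH5 list. Both site 3 peaks were among the weakest of their lists, at p percentiles of 12.6 and 9.9.

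CD40, the receptor through which T cells activate B cells (ENSG00000101017, chromosome 20, 46118314 to 46129858), had 1 peak for shNC and 2 for shALKBH5. Site 1 lay at 46128942 to 46129209 for shNC and at 46128971 to 46129298 for shALKBH5, with 239 bases in common. Its folds were 5.73 and 6.56, and its log10 p values were -6.54 and -17.4. Site 2, at 46129447 to 46129625 and 233 bp before the gene end, was listed with shALKBH5 alone.

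This CD40 peak was the single peak of the 8 genes without a partner in the other list, 1 of 12 for shALKBH5 and 0 of 11 for shNC. Over all peaks, 19.8% of the shALKBH5 list and 12.6% of the shNC list had no partner, so these counts over few peaks are not a result about the receptors. The fold of CD40 site 2 was 14.5, at percentile 82 of its list, and its log10 p was -3.54, at percentile 9.18. It lay 237 bp from the shNC peak of CD40. Exactly the same pair of fold and log10 p was given to 162 peaks in 158 genes of the shALKBH5 list, and 130 of them (80.2%) had no shNC partner. Of the 4759 shALKBH5 peaks with at least this fold, 3.4% had a p as weak, and these were the same 162 peaks. The median log10 p of the 4759 peaks was -20.8. Among the 4883 shALKBH5 peaks without a partner, 32.1% had a p as weak.

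**Figure D1:**
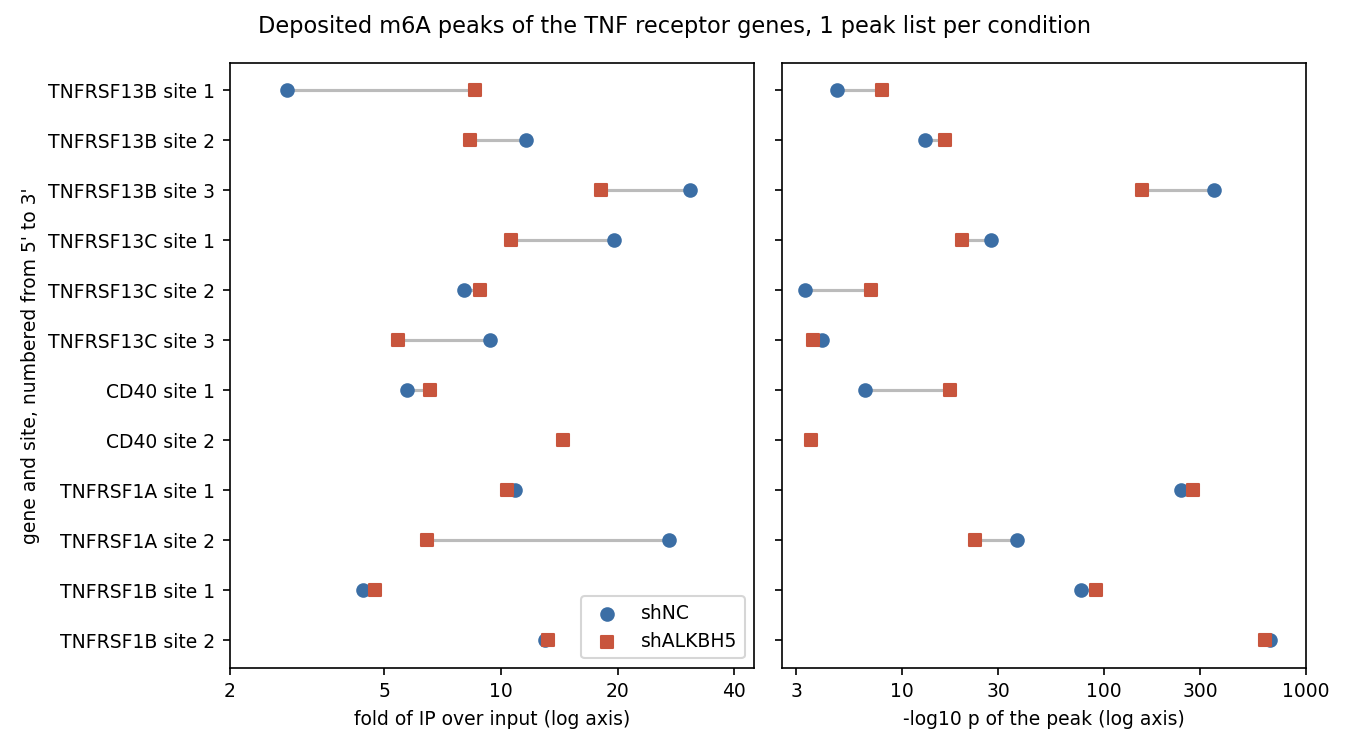
Fold of IP over input (left, log axis) and -log10 p (right, log axis) of every peak of the 5 genes with peaks, by gene and site, with circles for the shNC list, squares for the shALKBH5 list and a grey line joining peaks that share bases. Each point is 1 peak from 1 pair of libraries, without error bars; the folds at TNFRSF1A site 2 (27.2 and 6.43) stand far apart, those at TNFRSF1B site 2 (13 and 13.2) close together, and CD40 site 2 has a single point.

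TNFRSF1A, the TNF receptor with a death domain that most tissues carry (ENSG00000067182, chromosome 12, 6328771 to 6342076), had 2 peaks in each list, both at the gene end. Site 1, 374 bp before the gene end at 6329145 to 6329564, had the same borders in both lists. Its folds were 10.9 for shNC and 10.4 for shALKBH5, and its log10 p values were -241 and -277. Site 2 covered the gene end, at 6328757 to 6328996 for shNC and 6328757 to 6328936 for shALKBH5. Its folds were 27.2 and 6.43, at percentiles 95.7 and 49.1, while its log10 p values were -37.2 and -23. In the shNC list the peak with the higher TNFRSF1A fold was therefore the weaker by p. In the shALKBH5 list site 1 led by both.

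TNFRSF1B, the TNF receptor without a death domain that is found mainly on immune cells (ENSG00000028137, chromosome 1, 12166991 to 12209220), had 2 peaks in each list, whose values lay close together in the 2 conditions. Site 1 ran from 12207166 to 12207644 for shNC and to 12207674 for shALKBH5, with folds of 4.4 and 4.74 and log10 p values of -77.4 and -92. Site 2, at 12208571 to 12209228 in both lists, covered the gene end with 658 bases and was the longest peak of these receptors. Its folds were 13 and 13.2, at percentiles 76.5 and 77.9. Its log10 p values of -668 and -631 were the strongest of the 8 genes and ranked 391 and 394 in their lists. At a smaller fold than TNFRSF13B site 3, TNFRSF1B site 2 thus had a stronger p in both lists.

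TNFRSF17, CD27 and LTBR had no listed peak in either condition. TNFRSF17 encodes BCMA, a plasma cell receptor for BAFF and APRIL, CD27 is the receptor of CD70 on memory B cells, plasma cells and T cells, and LTBR is the lymphotoxin beta receptor, known mainly from stromal and myeloid cells. Peaks in 5 of 8 genes stand beside 43.2% of RefSeq protein-coding symbols with a peak for shNC and 45.8% for shALKBH5, and over 8 genes nothing is read from this. The peak lists cannot separate an RNA that is absent from an RNA without m6A. Around TNFRSF17 (chromosome 16, 11965210 to 11968068), the nearest listed peak belonged to NPIPB2, 37358 bp away for shNC and 37418 bp for shALKBH5. Around LTBR (chromosome 12, 6375160 to 6391566), the nearest peak was that of TNFRSF1A, 45595 bp away in both lists.

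CD27 (chromosome 12, 6443892 to 6451713) was different, since a peak of its antisense gene CD27-AS1 lay inside its span in both lists. That peak ran from 6447848 to 6448147 for shNC, where its fold was 5.82 and its log10 p -32. For shALKBH5 it ran from 6447818 to 6448147, where these were 19.6 and -31.4. The sources used here do not state whether strand was kept, so reads of CD27 and CD27-AS1 cannot be told apart at this peak. Among the 8 spans, that of CD27 was the only one with a listed peak of another gene.

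The receptor peaks differed in how far they lay from the gene end. The 3′ edge lay less than 1000 bp before the RefSeq gene end, or beyond it, in 5 of 11 shNC peaks and 6 of 12 shALKBH5 peaks. Over all peaks placed on a RefSeq gene, the shares were 24.1% and 23.0%. The receptor counts rest on few peaks, mostly at the same sites in both lists, and nothing is read from them. The peaks farther from the gene end were all peaks of TNFRSF13C, sites 1 and 2 of TNFRSF13B and site 1 of TNFRSF1B. TNFRSF13B was also the only receptor with a peak at its gene start.

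**Figure D2:**
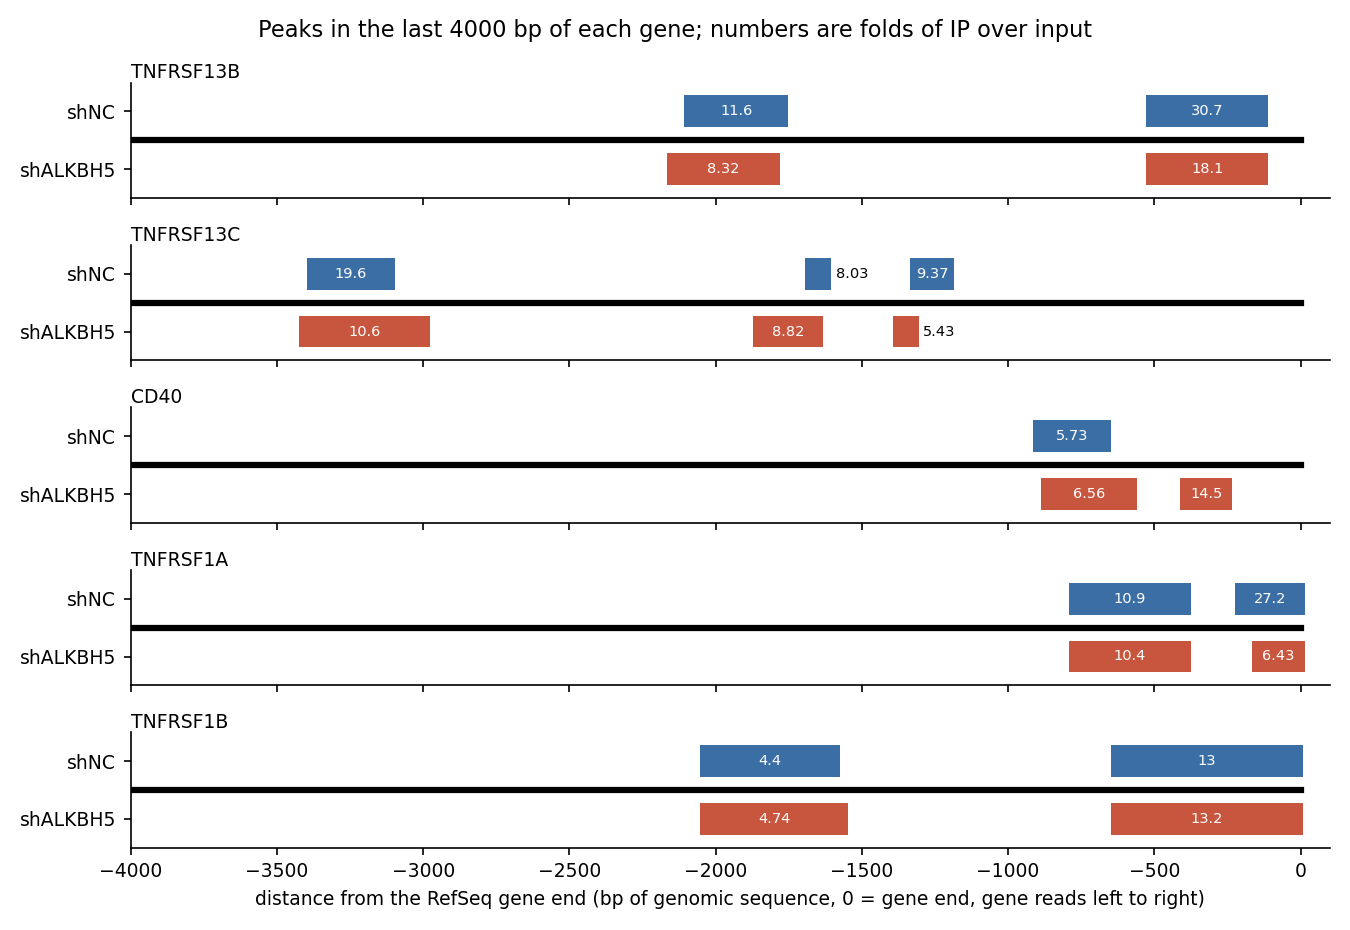
Position of the peaks in the last 4000 bp of each gene, with the distance from the RefSeq gene end in bp on the x axis, shNC peaks above and shALKBH5 peaks below the black gene line, and the fold of each peak as a number. The spliced peak at the TNFRSF13B start lies outside the window; peaks of TNFRSF1A and TNFRSF1B reach the gene end, those of TNFRSF13C end at least 1186 bp before it, and a CD40 box stands alone in the shALKBH5 row.

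Of the 11 sites with peaks in both lists, 3 had identical borders, namely TNFRSF13B site 3, TNFRSF1A site 1 and TNFRSF1B site 2. Over all shNC peaks with a partner, 14.4% had a partner with identical borders. The 3 sites were also the strongest by p of their genes in both lists. The shared bases made up 20.7% of the shNC peak and 34.1% of the shALKBH5 peak at TNFRSF13C site 3, and 67% and 25.4% at site 2. At the 9 remaining sites they made up at least 66.6% of either peak.

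Against their lists, the receptor peaks had a median fold of 10.9 for shNC, where the median of all peaks was 6.54, and of 8.71 for shALKBH5, where it was 6.64. The median fold of all peaks was exceeded by 8 of 11 receptor peaks for shNC and 8 of 12 for shALKBH5. Their median log10 p was -27.5 for shNC, against -15.8 for all peaks, and -18.6 for shALKBH5, against -15.3. By p, 6 of 11 and 8 of 12 receptor peaks were stronger than the median of all peaks. Over so few peaks, mostly at the same sites in both lists, nothing is read from these counts and medians. The receptor folds ran from 2.81 to 30.7 for shNC and, in the shALKBH5 list, from 4.74 to 18.1. The peaks were 91 to 658 bases long in both lists.

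Several of the receptor peaks that were weak by p, though not TNFRSF13B site 1, had values that other peaks shared. In the shNC list, 8 of 11 receptor peaks had a pair of fold and log10 p found at no other peak, as did 9 of 12 in the shALKBH5 list. The pair of TNFRSF13C site 2 for shNC occurred at 56 peaks, and that of site 3 at 35 peaks for shNC. For shALKBH5, the TNFRSF13C pairs occurred at 7 peaks for site 2 and 20 peaks for site 3. The pair of CD40 site 1 for shNC occurred at 3 peaks. No TNFRSF1A, TNFRSF1B or TNFRSF13B peak shared its pair with another peak of its list.

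**Figure D3:**
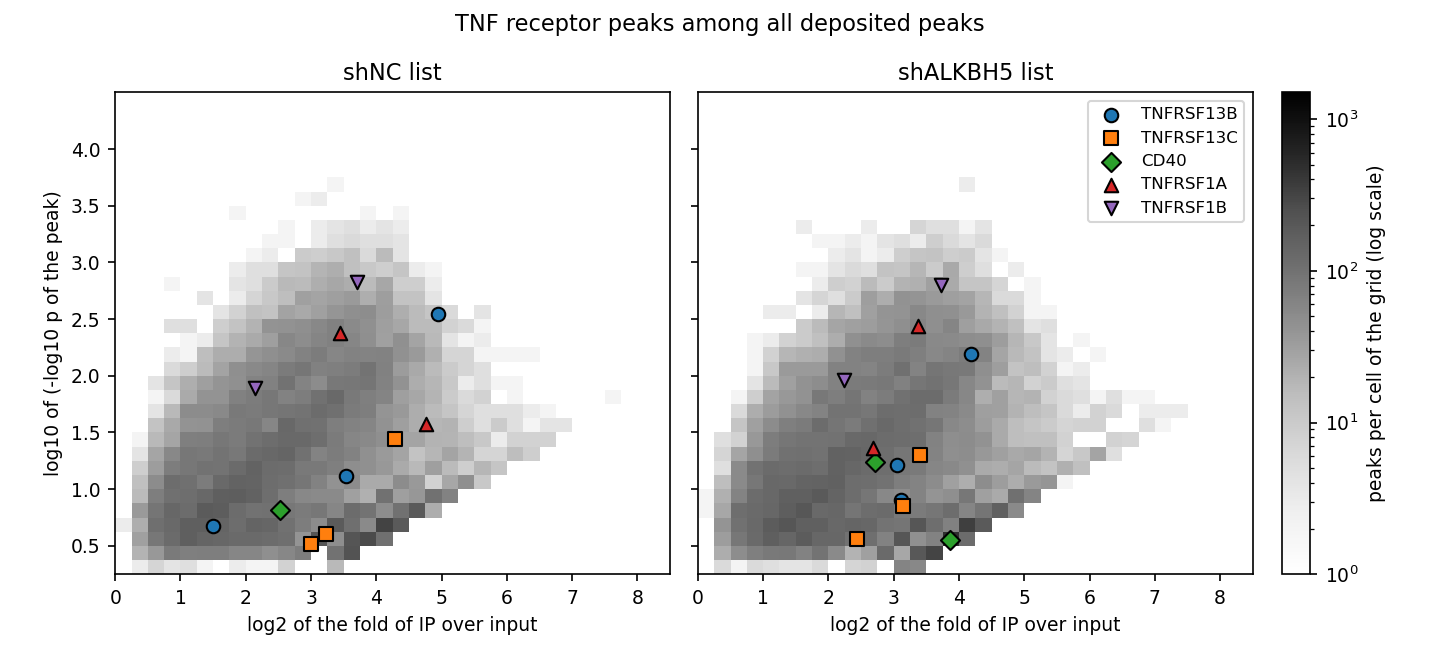
Each panel shows 1 list, with log2 of the fold on the x axis, log10 of the -log10 p on the y axis and grey cells for the number of all peaks, leaving out those without a numeric p; symbols are the receptor peaks. TNFRSF1B and TNFRSF1A peaks reach the upper part of both panels. CD40 site 2 (fold 14.5, log10 p -3.54) lies on the lower border of the grey cells, near the middle of the x axis of the shALKBH5 panel, where 162 peaks share its values.

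The receptors were next set beside other genes of the same signalling route, by lists of known function. The counts of genes with a peak stand beside 43.2% and 45.8% of RefSeq protein-coding symbols with a peak for shNC and shALKBH5. Over lists this short nothing is read from them. Pairs of folds below are those of the peak of the gene with the strongest p in each list. Such pairs were not matched by site, so where a gene had several peaks they may come from different sites. TNFSF10, FAS, ADAM17, CD79B and CD68 had 1 peak in each list, and each of these peaks had a partner in the other list. Of 15 ligand genes, 5 had peaks under both conditions, 1 under shNC alone and 9 under neither. LTB, the lymphotoxin beta subunit that binds LTBR, had folds of 4.29 for shNC and 4.14 for shALKBH5 with log10 p values of -246 and -523. TNFSF10 (TRAIL) had folds of 28.8 and 19. TNFSF13, which encodes APRIL, had a peak for shNC alone (fold 2.89, log10 p -8.19). CD70, the ligand of CD27, had peaks in both lists. TNFSF13B, which encodes BAFF, had none.

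Among 21 other TNF receptor superfamily genes, 11 had peaks in both lists and 10 in neither. The strongest by p were the TRAIL receptor TNFRSF10A, with folds of 13.3 and 13.9, and the death receptor FAS, with 9.17 and 9.42. These 11 genes had 0 of 21 shNC peaks and 6 of 26 shALKBH5 peaks without a partner, beside 12.6% and 19.8% of all peaks of these lists, and over so few peaks nothing is read from the counts.

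All 13 receptor-proximal adaptors and ligases had a listed peak, 12 of them in both lists, beside 43.2% and 45.8% of RefSeq protein-coding symbols with a peak for shNC and shALKBH5. FADD, a death domain adaptor, had folds of 11.7 and 10.6 with log10 p values of -913 and -619, and TRAF5 had folds of 18.8 and 19.3. TRAF3, an adaptor that restrains signalling from the BAFF receptor and CD40, had a peak with shALKBH5 alone (fold 4.41, log10 p -8.26). Their peaks without a partner numbered 0 of 26 for shNC and 5 of 32 for shALKBH5, again beside 12.6% and 19.8% of all peaks.

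Of 10 NF-κB kinase, subunit and inhibitor genes, 7 had peaks in both lists. RELA had folds of 4.31 and 6.61, and MAP3K14, the kinase NIK of the non-canonical route, had 8.69 and 5.86. RELB was listed for shNC alone (fold 2.3, log10 p -5.21). IKBKG was listed for shALKBH5 alone (fold 9.05, log10 p -10), but a pseudogene nearly identical to it makes this peak uncertain. CHUK had no listed peak.

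Of 8 genes in a list of sheddases, gamma-secretase subunits and FURIN, 7 had peaks in both lists. Sheddases and gamma-secretase cut receptors such as BCMA, TACI and the TNF receptors from the cell surface. ADAM17, which sheds TNF receptors, had folds of 14.7 and 15.4 with log10 p values of -354 and -342. APH1A, a gamma-secretase subunit, had folds of 3.12 and 3.07. PSENEN had no listed peak.

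The labelled cell type was set against marker lists, for which a peak shows only that RNA was there. Here too 43.2% of protein-coding symbols had a peak for shNC and 45.8% for shALKBH5. Over so few markers the counts are not read as a result about the cell type. Of 10 plasma cell markers, 6 had peaks in both lists, led by SDC1 (CD138) with folds of 10.1 and 14.7 and by IRF4 with 11.6 and 14.5. The plasma cell markers without a listed peak were TNFRSF17, JCHAIN, SLAMF7 and CD79A. Of 8 B cell markers, 3 had peaks in both lists, with BLK (folds of 4.03 and 4.64) and CD79B (6.64 and 4.3) the strongest by p. The other, PAX5, had 1 peak in each list, with log10 p values of -4.26 and -3.29, and neither peak had a partner. Of 10 T and NK cell markers, 1 had a peak, CD8A with shALKBH5 alone (fold 7.69, log10 p -3.12). Of 8 myeloid markers, 2 had peaks in both lists, CD68 with folds of 3.27 and 2.47 and ITGAM with 4.03 and 3.55.

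**Figure D4:**
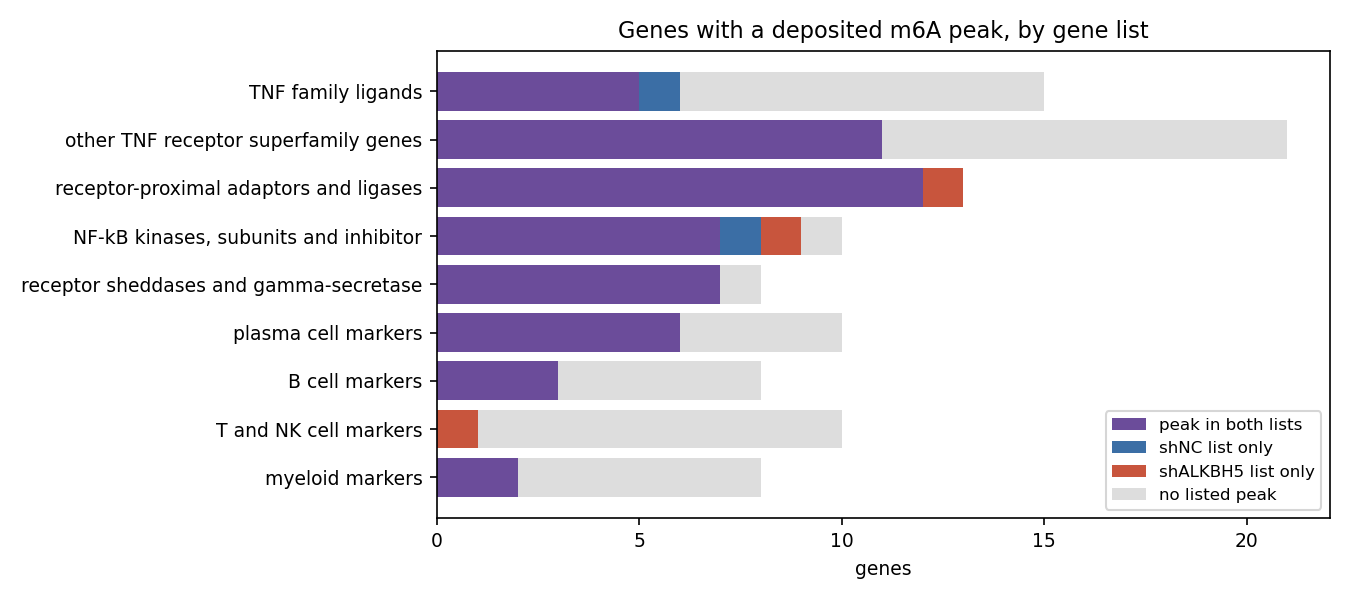
Number of genes (x axis) of each list with deposited peaks under both conditions, under shNC alone, under shALKBH5 alone or under neither, as stacked bars from 0. The bar of adaptors and ligases has no part without a peak (0 of 13), while 9 of 15 ligand genes and 9 of 10 T and NK cell markers have none.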

How the data were processed

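Build hg38 and the tools BWA 0.7.12, fastp 0.19.11 and HOMER 4.9.1 stand, without role or order, in the submitters' processing notes. The sources used here do not give the peak caller. For each condition the authors deposited 1 peak table, from 1 IP and 1 input library. Per the file headers, a fold enrichment (read as the ratio of IP over input) is given per peak, and the authors' p-value stands in the column named score. The deposited log10 values of p and FDR were handled as scores with no fixed range. Peaks whose log10 p cell held no number were ranked as the strongest.

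Starts in the deposited tables count from 0: after adding 1, 185 shNC and 211 shALKBH5 peak starts fell on RefSeq gene borders, against 20 and 31 as written. Partners were peaks of the other list sharing at least 1 base of their blocks, strand ignored, found in Python 3.11.15 with pandas 2.3.3 and numpy 2.4.6. On simulated peaks, 2000 of 2000 partner calls were right. Plots used matplotlib 3.10.9. Gene positions and sequences came from RefSeq, GRCh38.p14, matched by symbol and chromosome. Depth is unknown, so no interval was computed.

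The receptors, gene lists and alternatives were chosen with earlier results of these data known. Every peak of each receptor is named. Of each other list, the text names genes found in 1 list alone and up to 2 genes with the strongest p in the shNC list. TNFSF13B, CD70, CHUK, PSENEN, PAX5 and the plasma cell markers without a peak were named after their values were seen. Alternatives were folds of at least 2 times the lowest of the list, partners on the same strand, partners within 200 bp, a reciprocal overlap of 50%, merging of peaks within 100 bp, and lists of equal length by p.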

Additional observations from a re-analysis of the deposited data

How the results depend on the processing

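The number of receptors with peaks in both lists was 5 under each of the 7 alternatives. Changes of the partner rule and the merging of peaks could not alter this number, since it does not depend on partners. Only the fold limit and the shortened lists could have lowered it. Under a reciprocal overlap of 50%, receptor peaks without a partner numbered 2 for shNC and 3 for shALKBH5, in place of 0 and 1, because sites 2 and 3 of TNFRSF13C no longer paired. The shares of all peaks without a partner then stood at 22.2% and 29.1%. With the shALKBH5 list shortened by p to 22448 peaks, the number without a partner was 0 for shALKBH5. The limit fell at a log10 p of -3.54, the value of CD40 site 2, among 193 tied peaks. With all tied peaks kept, an alternative chosen after seeing the data, the number was 1 again. The other alternatives left 0 and 1. Depth is unknown, so its part in these values was not tested, and no replicate library gives their spread.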
